A study of Homo sapiens with 6 samples.

Results

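The genes described here are the listed members of the cadherin and protocadherin superfamily in A549, an established cell line from a human lung adenocarcinoma, after treatment with mitoxantrone, an anticancer drug that traps topoisomerase II on DNA. They were taken by symbol from the deposited table of genes that differed between the treatments: every symbol beginning with PCDH, or made of CDH, CDHR, DSC, DSG, CELSR or FAT and a number. The rule found 37 of the 4546 listed genes. Total RNA was sequenced from 3 libraries of cells kept for 48 hours in 50 nM mitoxantrone and 3 of cells kept for 48 hours in a 1/1000 dilution of DMSO. All libraries came from the same line, and the labels do not say whether replicates were separate cultures or whether the mitoxantrone cells also received DMSO. The work belongs to a study of immunogenic senescence in lung cancer.

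Cadherins are calcium-dependent adhesion proteins built from repeated extracellular domains. Classical cadherins hold epithelial cells together and tie them through catenins to actin, whereas desmocollins and desmogleins form desmosomes and tie cells to keratin filaments. Clustered protocadherins lie in neighbouring alpha, beta and gamma arrays and are best known for giving neurons a surface identity. CELSR and FAT proteins are large atypical cadherins of planar cell polarity, the alignment of cells within a sheet, and several CDHR and PCDH proteins link microvilli or stereocilia.

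As estimated from the deposited counts and FPKM, the mitoxantrone libraries held 16681380 to 19352443 reads and the DMSO libraries 20380674 to 21781220. The members held 5350, 5484 and 6288 reads in mitoxantrone 1 to 3 and 4487, 4104 and 4287 in DMSO 1 to 3. Every gene in the table had passed the authors' threshold on these same libraries: its smallest absolute log2 fold change is 1.00 and its largest adjusted p is 0.0497. A gene missing from it is called not listed, which does not mean unchanged. In bulk RNA, a change in the number of cells that express a gene and a change in RNA per cell cannot be told apart.

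After mitoxantrone, 35 of the 37 members were higher and 2, CDH4 and CDH11, were lower. All 37 passed the 0.05 threshold on the adjusted p of the quasi-likelihood test in edgeR, as did 100% of the 4546 listed genes, so passing carries no information on its own. The direction can be read against the table: 58.9% of all listed genes were higher and 41.1% lower. Listed genes with few reads were more often higher. Among genes with a mean normalized count under 50 over all libraries, 77.8% were higher, as were 25 of 26 members, and among genes with a mean of at least 50, 45% were higher, as were 10 of 11 members. The median log2 fold change of all listed genes was 1.93 in the lower range of counts and -1.06 in the higher one, against 2.10 and 1.65 for the members. A normalized count is the raw read count divided by a size factor for the library. The median log2 fold change was 1.76 over the members and 1.20 over all listed genes. It was also 1.76 over the members with PCDH15, which had 0 reads in DMSO, set against 3 reads there. The groups did not overlap in any of the 37 members, nor in 98.3% of all listed genes.

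Tested against a 2-fold change (glmTreat in edgeR), 29 members were higher and 2 lower, where 48.5% of listed genes passed as higher, 32.1% as lower and 80.6% in either direction. The 6 members that did not pass were CDH1, PCDHA1, PCDHB6, PCDHB15, PCDHGB3 and PCDH12. DESeq2 with size factors taken from the listed genes alone moved all genes by a median of -0.84 on the log2 scale. It gave 1580 higher and 1868 lower genes, so 45.8% of calls were higher in place of 58.9%, and it called 23 members higher and 2 lower against no change, and 2 higher and 2 lower against a 2-fold change, with all 35 still above 0 and 31 of the 37 above the median of all listed genes. With the size factors recovered from the deposited table, DESeq2 passed 14 members as higher and 1 as lower against a 2-fold change. The members whose call against no change was ended by the scaling on listed genes were CDH1, CDH6, CDH13, CDH18, FAT2, PCDH12, PCDHA1, PCDHA7, PCDHB6, PCDHB13, PCDHB15 and PCDHGB3. Of 108 protein-coding genes of these families named by RefSeq, the 37 members are those listed. The largest groups of members were the clustered protocadherins, with 18, and the classical and type II cadherins, with 8.

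**Figure D1:**
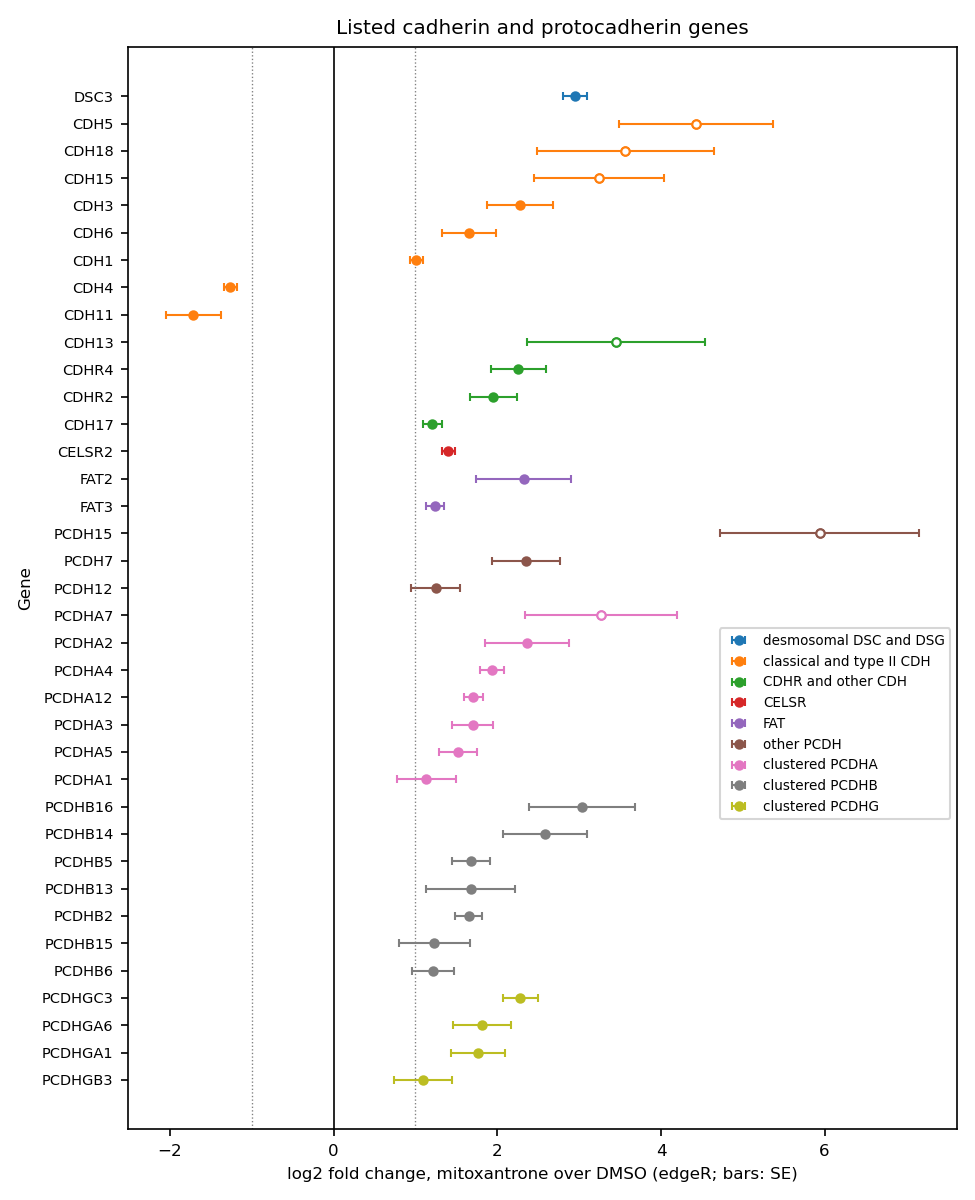
Log2 fold change of mitoxantrone over DMSO for each of the 37 listed genes (points, edgeR; bars, standard error), coloured by subfamily, with dotted lines at -1 and 1; open points had 3 or fewer reads over the DMSO libraries, so their position depends on the fit's prior count. CDH4 and CDH11 lie below 0 and the other 35 genes above it.

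The clustered protocadherins were all higher where listed. In the alpha and gamma arrays each gene has its own promoter and variable first exon, spliced to constant exons shared by the array, and beta genes have no shared constant exons. The promoters of these genes are known to carry a short conserved element with the letters CGCT, near which the insulator protein CTCF binds. The windows shown here are the 100 bases before the RefSeq start (GRCh38.p14, plus strand of chromosome 5) of the listed genes with the most reads in each array and of further alpha, beta and gamma genes for comparison. The capitals mark CGCT.
PCDHA12: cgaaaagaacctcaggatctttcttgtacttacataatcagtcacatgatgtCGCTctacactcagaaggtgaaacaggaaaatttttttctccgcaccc
PCDHA4: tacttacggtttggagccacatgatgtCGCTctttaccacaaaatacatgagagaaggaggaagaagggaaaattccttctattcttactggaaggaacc
PCDHA5: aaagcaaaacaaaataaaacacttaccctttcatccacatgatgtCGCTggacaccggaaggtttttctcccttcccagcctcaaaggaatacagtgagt
PCDHB2: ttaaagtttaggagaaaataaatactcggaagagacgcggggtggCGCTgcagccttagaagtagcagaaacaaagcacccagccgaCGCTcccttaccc
PCDHB15: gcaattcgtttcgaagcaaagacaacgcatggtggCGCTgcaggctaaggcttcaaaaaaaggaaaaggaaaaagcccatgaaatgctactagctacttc
PCDHGC3: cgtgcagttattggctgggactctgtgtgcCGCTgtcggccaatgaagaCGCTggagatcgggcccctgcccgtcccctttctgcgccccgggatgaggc
PCDHGA6: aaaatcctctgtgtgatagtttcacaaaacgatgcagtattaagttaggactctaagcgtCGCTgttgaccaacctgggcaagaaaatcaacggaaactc
The windows of the alpha genes are chr5:140875208-140875307 for PCDHA12, chr5:140806968-140807067 for PCDHA4 and chr5:140821513-140821612 for PCDHA5. Those of the beta genes are chr5:141094515-141094614 for PCDHB2 and chr5:141245295-141245394 for PCDHB15, and those of the gamma genes chr5:141475866-141475965 for PCDHGC3 and chr5:141373791-141373890 for PCDHGA6. On the gene's strand, CGCT was found in all 16 windows of listed clustered genes that RefSeq's table holds, in 28 of 36 windows of clustered genes that were not listed, and in 28.1% of 35116 windows of all genes. Counting either strand (CGCT or AGCG), the shares were 16 of 16, 30 of 36 and 44.8%. The longest run with CGCT that all 6 windows of listed alpha genes share, CACATGATGTCGCT, has 14 letters and was taken from those windows, so their own count is fixed by that choice. It occurred in 1 of 7 windows of alpha genes not listed and in none of the 6 beta or 4 gamma windows of listed genes. Of all 35116 windows, 7 held it on either strand, and 6 of these were the windows it was taken from. Since the run was chosen on listed alpha windows, its rarity elsewhere does not show that it marks listed genes. A match of letters is a description and not a measured site. Of the 37 members, 26 had a promoter entry.

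In the alpha array 7 of 15 RefSeq genes were listed, namely PCDHA1, PCDHA2, PCDHA3, PCDHA4, PCDHA5, PCDHA7 and PCDHA12. PCDHA12 had the most reads, with 467, 391 and 435 normalized counts in mitoxantrone 1 to 3 and 115, 149 and 133 in DMSO 1 to 3. The groups lay far apart, with the lowest mitoxantrone library well above the highest DMSO library, and the log2 fold change was 1.71 ± 0.12 (SE; edgeR, adjusted p = 5.1e-17). PCDHA4 had 223, 196 and 238 counts with mitoxantrone, against 61.7, 60.4 and 50.0 with DMSO (1.93 ± 0.15; adjusted p = 1.7e-15). The windows of these 2 genes begin the list of sequences.

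PCDHA5 had 66.5, 67.7 and 73.5 normalized counts with mitoxantrone and 21.4, 26.9 and 24.1 with DMSO (log2 fold change 1.52 ± 0.23). PCDHA3 had 64.1, 70.0 and 53.1 with mitoxantrone and 18, 17.7 and 21.6 with DMSO (1.70 ± 0.25). In both genes every mitoxantrone library lay above every DMSO library. PCDHA1, the first gene of the array, averaged 25.4 ± 5.70 counts with mitoxantrone and 11.5 ± 4.76 with DMSO (SD, n = 3 each; log2 fold change 1.13 ± 0.36). PCDHA2 averaged 17.3 ± 3.47 with mitoxantrone and 3.27 ± 1.47 with DMSO (2.36 ± 0.51). PCDHA7 had 18 reads over the mitoxantrone libraries and 2 over the DMSO libraries, which is 11.4 times as many per size factor (exact 95% limits 2.72 and 101, for counting error only).

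Shares of the alpha array's listed reads differed little for its most abundant genes. PCDHA12 took 51.8% ± 1.62 of the listed alpha counts with mitoxantrone and 53.2% ± 3.94 with DMSO, and PCDHA4 took 26.3% ± 1.74 with mitoxantrone and 23.2% ± 2.65 with DMSO (SD, n = 3 each). The ranges of these 2 shares overlapped between the groups. PCDHA2 took 1.58% to 2.46% with mitoxantrone and 0.73% to 1.71% with DMSO, and PCDHA5 7.61% to 8.76% with mitoxantrone and 9.09% to 10.2% with DMSO. The shares of PCDHA5 did not overlap. Summed over the 7 genes, the level per length was 7.84 ± 0.391 FPKM with mitoxantrone and 2.49 ± 0.183 with DMSO, a ratio of 3.15 (exact two-sided permutation test, p = 0.1, the smallest that 3 against 3 allows). The genes summed were chosen on these same libraries, so permutation p-values of such sums and shares carry no information on their own. FPKM counts fragments per kilobase of gene model, scaled to the reads of the library.

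The alpha and gamma spans end together in the deposited table, on chromosome 5 at 140391929 for all 7 alpha genes. No member has the same start or end in that table as in GENCODE 29. Its positions therefore cannot be set beside those of the GRCh38.p14 windows above. In GENCODE 29 each listed alpha gene shares 2866 or 3428 of its exonic bases with other alpha genes, and each listed gamma gene shares 2181. How the authors' counting divided reads over the shared exons is not given in the sources used here. The reads assigned to the alpha members ranged from 20 (PCDHA7) to 1606 (PCDHA12) over all libraries, so reads on shared exons were not added in full to every gene. With each array summed to 1 row before the fit, the 3 arrays were still all higher, and 20 rows of the superfamily were higher and 2 lower.

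In the beta array 7 of 16 RefSeq genes were listed. The 6 of them found in GENCODE 29 share no exons with family members, but beta genes resemble one another in sequence, and how reads that fit several copies were counted is not given in the sources used here. PCDHB2 had 181.5, 128 and 149 normalized counts in mitoxantrone 1 to 3, against 46.3, 46.4 and 52.6 in DMSO 1 to 3 (log2 fold change 1.65 ± 0.17; edgeR, adjusted p = 9.0e-12). PCDHB5 had 56.9, 94.8 and 95.9 with mitoxantrone and 18, 30.7 and 29.3 with DMSO (1.68 ± 0.24). Replicate 1 was the lowest library of both groups for PCDHB5. PCDHB6 had 60.5, 59.8 and 57.1 with mitoxantrone and 25.7, 13.9 and 36.2 with DMSO (1.21 ± 0.26). Its mitoxantrone libraries lay close together while its DMSO libraries were spread, and the value was 0.93 without DMSO 2 and 1.56 without DMSO 3.

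The other 4 listed beta genes had fewer than 50 counts in both groups. PCDHB14 averaged 18.1 ± 2.34 with mitoxantrone and 2.89 ± 1.75 with DMSO, and PCDHB16 12.7 ± 5.10 with mitoxantrone and 1.46 ± 0.978 with DMSO (SD, n = 3 each), the widest contrasts of the array at 2.58 ± 0.51 and 3.03 ± 0.64 (log2, SE). Without DMSO 3, PCDHB16 was at 3.68. PCDHB13 was higher by 1.68 ± 0.54 and PCDHB15 by 1.23 ± 0.44. The call on PCDHB15 was lost without DMSO 3 (edgeR, adjusted p = 0.055), and over all alternatives its adjusted p ran from 0.0053 to 0.51. The summed level of the 7 genes was 6.10 ± 0.201 FPKM with mitoxantrone and 2.11 ± 0.286 with DMSO, a ratio of 2.89 (exact permutation p = 0.1). Antisense transcripts of GENCODE 29 overlap 620 of 4126 exonic bases of PCDHB2 and 501 of 3408 of PCDHB5. The gene lengths deposited are shorter, 2736 and 2904 bases, so whether those stretches were counted is not known. Other members are overlapped too, among them PCDHA12 (577 of 5454), PCDHA5 (590 of 7114) and CDH3 (694 of 6236). The labels do not say whether the libraries kept strand, so any reads over such stretches cannot be assigned to a strand.

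In the gamma array 4 of 22 RefSeq genes were listed: PCDHGA1, PCDHGB3, PCDHGA6 and PCDHGC3. PCDHGC3, a C-type gene at the far end of the array, had 146, 103 and 134 normalized counts with mitoxantrone and 15.4, 28.8 and 34.5 with DMSO (log2 fold change 2.28 ± 0.22; edgeR, adjusted p = 7.4e-13). It was the highest gamma member in both groups, and its share of the listed gamma counts was 55.2% to 59.0% with mitoxantrone and 36% to 53.5% with DMSO. These shares did not overlap. PCDHGA1 averaged 35.2 ± 4.26 with mitoxantrone and 10.3 ± 1.75 counts with DMSO and PCDHGA6 32.3 ± 5.45 with mitoxantrone and 9.10 ± 2.68 with DMSO (SD, n = 3 each), which gave 1.76 ± 0.33 and 1.81 ± 0.35. PCDHGB3 was at 1.09 ± 0.36, with 0.81 without DMSO 2 and 1.45 without DMSO 3, and in the authors' deposited table at 1.01, close to that table's limit of 1.00. The summed level was 2.37 ± 0.322 FPKM with mitoxantrone and 0.660 ± 0.190 with DMSO, a ratio of 3.59 (exact permutation p = 0.1).

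**Figure D2:**
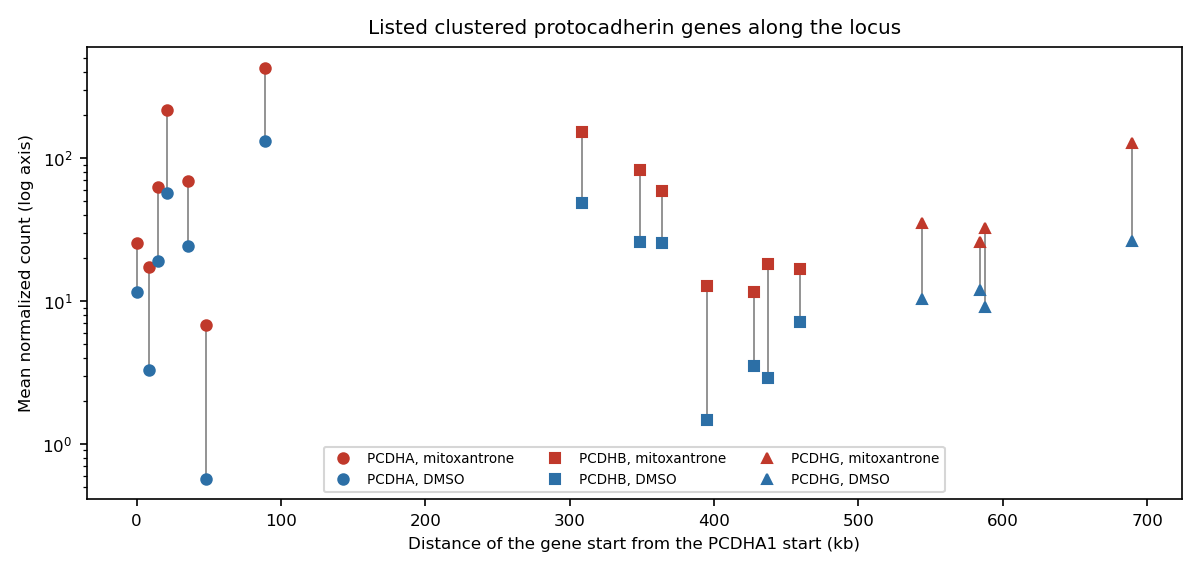
Mean normalized count (log axis) of the 18 listed clustered protocadherin genes against the distance of the gene's start from that of PCDHA1 in kilobases, as the deposited table places them; red, mitoxantrone; blue, DMSO; grey lines join the means of a gene (n = 3 libraries each). Every mitoxantrone mean lies above its DMSO mean, while the level differs between genes, from 430.7 counts with mitoxantrone and 132 with DMSO for PCDHA12 to 6.80 with mitoxantrone and 0.572 with DMSO for PCDHA7.

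Of a list of 24 regulators and partners of the clusters, 10 genes were in the table, 1 higher and 9 lower. All 10 had a mean count of at least 50, a range in which 1442 of 2622 listed genes were lower. Their median was -1.28 on the log2 scale, beside -1.06 for all listed genes of that range. CTCF, the insulator protein that binds at the cluster promoters and enhancers, averaged 925 ± 29.5 normalized counts with mitoxantrone and 2087 ± 110 with DMSO (-1.17 ± 0.07; edgeR, adjusted p = 2.4e-18). The cohesin genes RAD21, SMC3 and STAG1, whose complex folds the locus into loops with CTCF, fell by 1.42, 1.64 and 1.69 on the log2 scale. WAPAL, the cohesin release factor, fell by 1.52 and NIPBL, the cohesin loader, by 1.15. SMCHD1, which in mouse represses protocadherin cluster genes, averaged 536.5 ± 88.6 with mitoxantrone and 1198 ± 80.5 with DMSO (-1.16 ± 0.09). DNMT1, the maintenance DNA methyltransferase, fell by 1.38. CYFIP2, of the WAVE actin regulator that binds some protocadherin tails, was the listed gene that was higher (1.59 ± 0.07). Whether the levels of these genes had a part in those of the protocadherins was not tested.

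Among protocadherins outside the clusters, PCDH7, PCDH12 and PCDH15 were listed of 13. PCDH15, which forms tip links in hair cells, had 8, 5 and 7 reads in mitoxantrone 1 to 3 and 0 in each DMSO library. Set against an assumed 3 reads over the DMSO group it was 8.43-fold higher, with counting error in the mitoxantrone reads left out. PCDH7 averaged 26.1 ± 1.57 normalized counts with mitoxantrone and 5.06 ± 2.10 with DMSO (log2 fold change 2.35 ± 0.41). PCDH12, known from endothelium, averaged 42.5 ± 6.42 with mitoxantrone and 17.8 ± 9.88 with DMSO, and its value of 1.25 ± 0.30 became 1.81 without DMSO 1, the highest of the DMSO libraries, and 0.995 without DMSO 3, the lowest.

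Markers of neurons, the cells in which clustered protocadherins are best known, were listed for 5 of 8 genes, 4 higher and 1 lower. Their summed normalized counts were 2630 to 2857 with mitoxantrone and 925 to 976 with DMSO. Of the 5, 4 had mean counts of at least 50, where 45% of listed genes were higher, and 1 had fewer, where 77.8% were. TUBB3, a neuronal tubulin gene, was higher at 1.34 ± 0.08, and NEFL, a neurofilament gene, at 2.24 ± 0.09. RBFOX3 and MAP2 were higher at 1.24 ± 0.14 and 1.31 ± 0.26, and SYP, synaptophysin, was lower at -2.16 ± 0.23. Their part in the protocadherin values was not tested.

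DSC3 had the smallest adjusted p of the superfamily in the main edgeR fit. In the authors' deposited values CELSR2 had the smallest. DSC3 encodes desmocollin 3, a desmosomal cadherin typical of stratified epithelium (ENSG00000134762; chromosome 18, 28569974 to 28622781, minus strand; coordinates here and in the next genes are those of the deposited table, which names no build). It had 356, 448 and 453 normalized counts in mitoxantrone 1 to 3 and 65.2, 39.9 and 56.9 in DMSO 1 to 3. The groups were far apart, and the difference was 7.72-fold (log2 2.95 ± 0.15; edgeR, adjusted p = 6.7e-22). Its level per length was 2.99 ± 0.425 FPKM with mitoxantrone and 0.407 ± 0.0971 with DMSO. The other 6 desmosomal cadherins, DSC1, DSC2, DSG1, DSG2, DSG3 and DSG4, were not listed.

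Of a list of 14 genes of the desmosome plaque and of the cornified layer, 7 were in the table and all 7 were higher, with a median of 2.07. Of these, JUP, PERP and PPL had mean counts of at least 50, where 45% of listed genes were higher, and the other 4 had lower counts, where 77.8% were. JUP, PERP, PPL and PKP1 act in or at desmosomes, and TGM1, TGM3 and KRT5 are transglutaminase and keratin genes. JUP, plakoglobin, which binds desmosomal cadherin tails, averaged 8538 ± 565 counts with mitoxantrone and 2801 ± 127 with DMSO (log2 fold change 1.61 ± 0.07; edgeR, adjusted p = 8.9e-25). PERP, a p53 target that desmosomes need, averaged 6140 ± 291 with mitoxantrone and 2022 ± 124 with DMSO (1.60 ± 0.07). PPL, periplakin, was at 1.10 ± 0.10 and failed the 2-fold test (glmTreat in edgeR, adjusted p = 0.068). TGM1, a transglutaminase of the cornified envelope, was 6.48-fold higher, at 44.5 ± 4.41 with mitoxantrone and 6.78 ± 0.702 with DMSO. TGM3, another transglutaminase, averaged 7.75 ± 1.53 with mitoxantrone and 1.72 ± 1.71 with DMSO (2.07 ± 0.72). PKP1, plakophilin 1, averaged 7.08 ± 1.41 counts with mitoxantrone and had 0 reads with DMSO. KRT5 had 9.68, 1.13 and 5.10 normalized counts in mitoxantrone 1 to 3 and 0, 0.929 and 0.862 in DMSO 1 to 3. DSP, desmoplakin, was not listed. Keratinocyte markers were listed for 3 of 8 genes (KRT16, KRT6A and KRT5, which is also among the 7 above). Their summed counts were 26.0 to 55.7 with mitoxantrone and 4.29 to 12.1 with DMSO. All 3 had mean counts under 50, where 77.8% of listed genes were higher. KRT14 and TP63 were not listed, and the part of these markers in the DSC3 value was not tested.

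Classical and type II cadherins were the subfamily that moved in both directions, 6 higher and 2 lower of 18. CDH4, R-cadherin, known from the developing retina and brain (ENSG00000179242; chromosome 20, 59827482 to 60515673), had the highest level per length of all members with DMSO. It had 711, 665 and 710.0 normalized counts in mitoxantrone 1 to 3, against 1728.5, 1723 and 1560.4 in DMSO 1 to 3. All mitoxantrone libraries were below all DMSO libraries, and the gene was 2.40-fold lower (log2 fold change -1.26 ± 0.08; edgeR, adjusted p = 1.1e-18). CDH11, a type II cadherin of osteoblasts and mesenchyme, averaged 10.1 ± 2.83 counts with mitoxantrone and 33.2 ± 0.967 with DMSO (-1.71 ± 0.34). Fibroblast markers were listed for 2 of 9 genes, COL1A1 at -1.22 ± 0.10 and THY1 at 1.26 ± 0.23. THY1 failed the 2-fold test (glmTreat in edgeR, adjusted p = 0.051). The 2 genes summed to 306 to 391 counts with mitoxantrone and 618 to 674 with DMSO. Their part in the CDH11 value was not tested.

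CDH1, E-cadherin, the main adhesion protein of epithelia (ENSG00000039068; chromosome 16, 68771128 to 68869451), had 1282, 1268 and 1396 normalized counts with mitoxantrone and 626, 657 and 675 with DMSO. The groups did not overlap, at a log2 fold change of 1.01 ± 0.08 (edgeR, adjusted p = 2.1e-15), but the gene did not pass against a 2-fold change (glmTreat, adjusted p = 0.21). In FPKM, CDH1 stood at 10.8 ± 0.643 with mitoxantrone and 5.66 ± 0.221 with DMSO, and CDH4 at 5.20 ± 0.174 with mitoxantrone and 13.3 ± 0.700 with DMSO. The level of CDH1 divided by that of CDH4 was 2.07 ± 0.0891 with mitoxantrone and 0.428 ± 0.0398 with DMSO. Their order was opposite in the 2 groups and the same in every library of a group. Both genes were listed for opposite changes in these same libraries. The exact two-sided permutation test (p = 0.1, the smallest possible) therefore adds no support. CDH2, N-cadherin, was not listed. Of the epithelial markers 4 of 12 were listed, KRT19, KRT8 and CDH1 higher and MUC5AC lower. Their summed counts were 139841 to 153840 with mitoxantrone and 59489 to 68295 with DMSO. KRT8 held most of these, averaging 137473.6 with mitoxantrone and 63453.5 with DMSO. All 4 had mean counts of at least 50, where 45% of listed genes were higher. The antisense gene AC099314.1 of GENCODE 29 covers 347 of 6177 exonic bases of CDH1.

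The remaining classical and type II members were low in both groups and higher with mitoxantrone. CDH3, P-cadherin, which lies beside CDH1, averaged 27.5 ± 7.62 counts with mitoxantrone and 5.54 ± 2.03 with DMSO (log2 fold change 2.28 ± 0.41). CDH6, K-cadherin of the fetal kidney, averaged 34.5 ± 6.29 with mitoxantrone and 10.9 ± 1.78 with DMSO (1.66 ± 0.33). CDH5, VE-cadherin of endothelium, had 24 reads over the mitoxantrone libraries and 1 over the DMSO libraries, a ratio of 30.3 (exact 95% interval 4.95 to 1247). CDH15, M-cadherin of muscle, had 25 reads with mitoxantrone and 3 with DMSO (ratio 10.5, 3.21 to 54.5) and CDH18 13 with mitoxantrone and 1 with DMSO (16.4, 2.47 to 698). Endothelial markers were listed for 3 of 9 genes, all higher: CDH5 itself, VWF and TEK. Their sums, CDH5 included, were 17.3 to 25.4 counts with mitoxantrone and 0 to 2.59 with DMSO. All 3 had mean counts under 50, where 77.8% of listed genes were higher. VWF overlapped between the groups, and TEK had 0 reads in all DMSO libraries. PECAM1 and KDR were not listed, and the part of these markers in the CDH5 and PCDH12 values was not tested. The leukocyte markers ITGAX, CD14 and CD8A, 3 of 10, summed to 252 to 258 counts with mitoxantrone and 41.8 to 56.9 with DMSO, with PTPRC not listed. ITGAX and CD14 had mean counts of at least 50, where 45% of listed genes were higher, and CD8A had fewer, where 77.8% were.

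**Figure D3:**
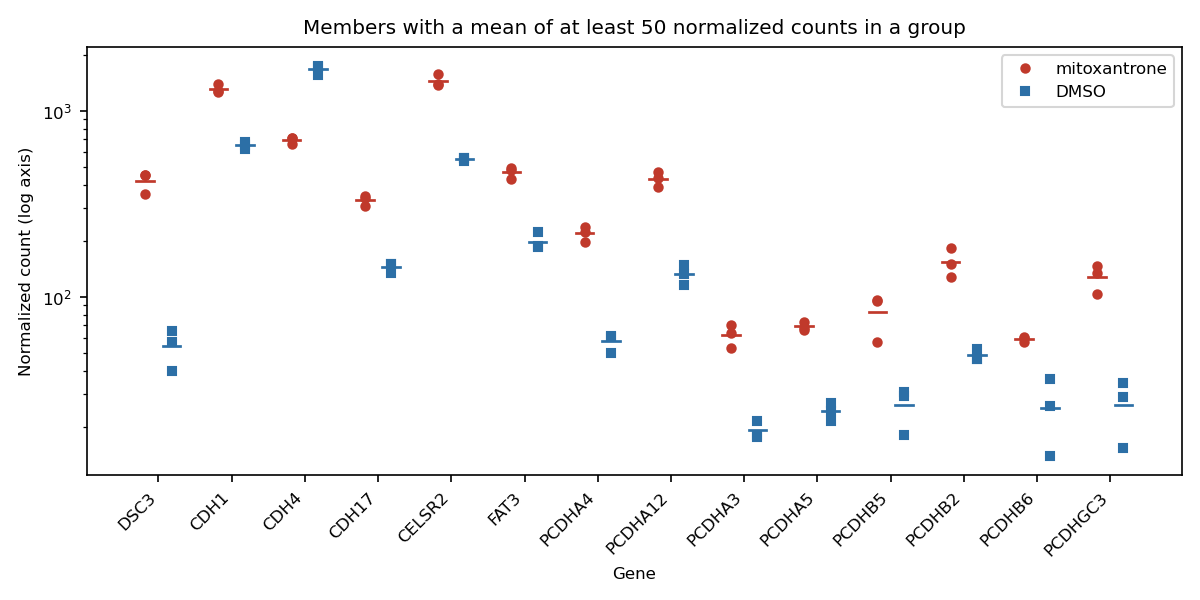
Normalized count (log axis) in each library for the 14 members with a mean of at least 50 in a group; red circles, mitoxantrone 1 to 3; blue squares, DMSO 1 to 3; short lines, group means. The groups do not overlap in any of the 14 genes, and CDH4 is the one gene of these that is lower with mitoxantrone.

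Summed over the 8 listed classical and type II members, the level was 16.6 ± 0.714 FPKM with mitoxantrone and 19.2 ± 0.509 with DMSO, a ratio of 0.866 (exact permutation p = 0.1). Without CDH4 the sum was 11.45 ± 0.5997 FPKM with mitoxantrone and 5.96 ± 0.191 with DMSO, a ratio of 1.92. CDH4 alone made up 10.6% ± 0.137 of the summed FPKM of all 37 members with mitoxantrone and 43.9% ± 1.91 with DMSO. The clustered protocadherins together made up 33.3% ± 1.26 with mitoxantrone and 17.4% ± 1.65 with DMSO, and CDH1 21.9% ± 0.795 with mitoxantrone and 18.7% ± 0.925 with DMSO. None of these 3 shares overlapped between the groups (exact permutation p = 0.1 each).

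**Figure D4:**
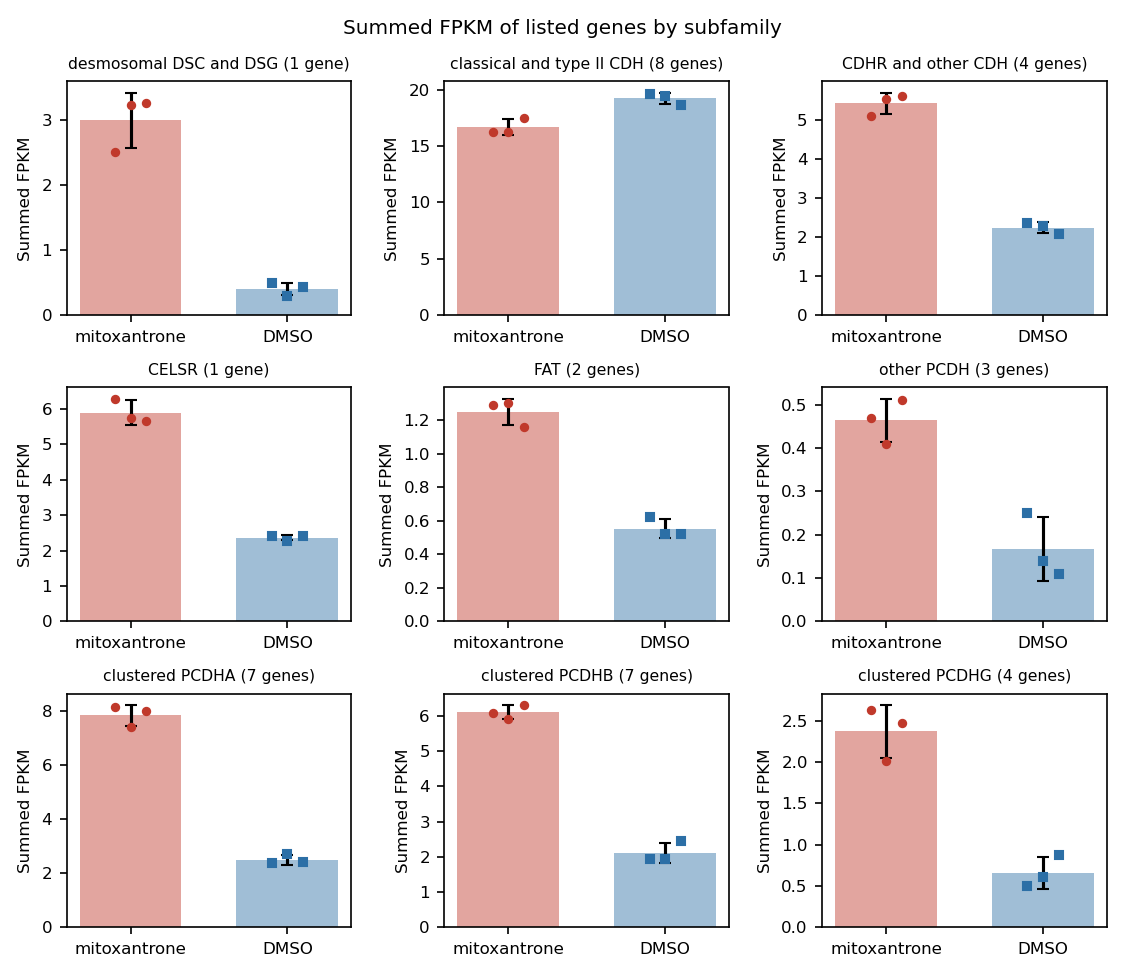
Summed FPKM of the listed genes of each subfamily in each library (points), with the group mean (bars, from 0) and SD (error bars); red, mitoxantrone; blue, DMSO; n = 3 libraries each. The sum of the classical and type II cadherins is lower with mitoxantrone, at 16.6 FPKM with mitoxantrone against 19.2 with DMSO, and the other 8 sums are higher.

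Among the catenins, CTNNA1 and CTNNB1, which link classical cadherins to actin, were not listed, nor was CTNND1. Of 20 cytoplasmic partners 6 were listed, 4 higher and 2 lower (median 1.70 on the log2 scale). Of the 6, 4 had mean counts of at least 50, where 45% of listed genes were higher, and 2 had fewer, where 77.8% were. ARVCF, a p120-catenin relative, averaged 399.9 ± 40.3 counts with mitoxantrone and 81.5 ± 10.8 with DMSO (2.29 ± 0.13). PKP4 and CTNNAL1, an armadillo protein and an alpha-catenin relative, fell by 1.16 and 1.38 on the log2 scale. CTNNBIP1, an inhibitor of beta-catenin, was higher by 1.12 ± 0.13 and failed the 2-fold test (glmTreat in edgeR, adjusted p = 0.075). CTNND2 averaged 8.83 ± 1.48 with mitoxantrone and 0.883 ± 0.0400 counts with DMSO, and CTNNA3 4.05 ± 1.61 with mitoxantrone and 0 with DMSO.

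Among transcription factors that act on cadherin genes, 4 of 23 were listed, 2 higher and 2 lower, and their median was 0.06. ELF3 and KLF4 had mean counts of at least 50, where 45% of listed genes were higher. SNAI3 and GRHL1 had fewer, where 77.8% were. ELF3, an epithelial ETS factor, averaged 4856 ± 313 counts with mitoxantrone and 2050.3 ± 70.2 with DMSO (1.24 ± 0.07), and SNAI3, a relative of the E-cadherin repressor SNAI1, 31.2 ± 8.73 with mitoxantrone and 4.97 ± 3.21 with DMSO (2.60 ± 0.42). KLF4, an epithelial factor that can activate CDH1, was lower at 239 ± 33.3 with mitoxantrone and 861 ± 68.2 with DMSO (-1.85 ± 0.10). GRHL1, which acts on desmosomal genes, was at -1.13 ± 0.25 and failed the 2-fold test (glmTreat in edgeR, adjusted p = 0.13). SNAI1, SNAI2, ZEB1, ZEB2 and TWIST1 were not listed. Of 18 genes of proteases that cut cadherins, gamma secretase included, 3 were listed, all higher: MMP7 (9.29-fold), the calpain CAPN1 (2.95-fold) and the serine protease HTRA1 (2.91-fold). All 3 had mean counts of at least 50, where 45% of listed genes were higher. ADAM10 was not listed.

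Of the 7 CELSR and FAT genes, CELSR2, FAT2 and FAT3 were listed, all higher. CELSR2, a cadherin with a transmembrane part like that of G protein-coupled receptors, had 1568, 1399 and 1378 normalized counts in mitoxantrone 1 to 3 and 556, 533 and 555 in DMSO 1 to 3. The spread within groups was small beside the difference, and the log2 fold change was 1.40 ± 0.08 (edgeR, adjusted p = 1.1e-19). FAT3, a giant cadherin studied in retinal neurons, had 491, 482 and 428.5 counts with mitoxantrone and 222, 187 and 184.5 with DMSO (1.24 ± 0.11; adjusted p = 7.3e-14). FAT2 averaged 12.3 ± 0.160 with mitoxantrone and 2.39 ± 1.15 counts with DMSO (2.32 ± 0.58). CELSR1, CELSR3, FAT1 and FAT4 were not listed. Of 25 planar polarity and FAT partners 4 were listed, 1 higher and 3 lower, with a median of -1.18, all with mean counts of at least 50 (all listed genes, -1.06). VANGL2, a core polarity membrane protein, averaged 326 ± 17.5 counts with mitoxantrone and 60.6 ± 7.41 with DMSO (2.42 ± 0.14). The Hippo pathway genes LATS1, LATS2 and WWC1 fell by 1.35, 1.51 and 1.01 on the log2 scale, and WWC1 did not pass against a 2-fold change (glmTreat, adjusted p = 0.21).

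CDH13, CDH17, CDHR2 and CDHR4 were listed of 10 non-classical cadherins outside the protocadherins, all higher. CDH17, LI-cadherin, which joins cells of intestinal epithelium, had 307, 340 and 349 counts with mitoxantrone and 149, 149.5 and 134.5 with DMSO (log2 fold change 1.20 ± 0.12; edgeR, adjusted p = 1.4e-12). Both groups were tight beside the difference. CDHR2, which links the tips of brush-border microvilli, averaged 49.4 ± 7.01 counts with mitoxantrone and 12.7 ± 1.92 with DMSO (1.95 ± 0.29). CDHR4 averaged 39.8 ± 2.54 with mitoxantrone and 8.16 ± 2.81 with DMSO (2.26 ± 0.34). CDH13, T-cadherin, which is held by a lipid anchor and has no cytoplasmic tail, had 12 reads with mitoxantrone and 1 with DMSO (ratio 15.2, exact 95% interval 2.24 to 648). Of 14 genes of tip links and the microvillar complex, 5 were listed and all 5 were higher, with a median of 2.00. In 4 of them the mean count was under 50, a range in which 77.8% of listed genes were higher and the median was 1.93. MYO7B, the motor of the microvillar complex, averaged 21.3 ± 6.18 with mitoxantrone and 4.01 ± 4.31 counts with DMSO (2.34 ± 0.51), and MYO7A, its hair-cell relative, 148 ± 24.7 with mitoxantrone and 48.6 ± 7.55 with DMSO (1.60 ± 0.17). PDZD7, a scaffold of stereocilia links, was at 1.15 ± 0.29 and failed the 2-fold test (glmTreat in edgeR, adjusted p = 0.13). ESPN, the actin bundler espin, was at 2.00 ± 0.71, and TMC1, of the hair-cell transduction channel, averaged 3.76 ± 0.947 with mitoxantrone and had 0 reads with DMSO. CLSTN2, calsyntenin 2, a cadherin-repeat gene outside the rule, averaged 62.7 ± 11.3 with mitoxantrone and 6.97 ± 3.29 with DMSO (3.13 ± 0.32).

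Other junction genes split, with 6 higher and 3 lower of 9 listed out of 27 and a median of 1.35. In 8 of them the mean count was at least 50, where the median of all listed genes was -1.06. The tight junction genes TJP1 and CLDN1 were lower, at 4542 ± 94.6 with mitoxantrone and 10928 ± 617 counts with DMSO and at 3244 ± 42.1 with mitoxantrone and 7325 ± 878 with DMSO (log2 fold changes -1.27 and -1.18). OCLN, occludin, was lower at -1.06 ± 0.10 and failed the 2-fold test (glmTreat in edgeR, adjusted p = 0.13). CLDN4 averaged 609 ± 40.8 with mitoxantrone and 73.1 ± 6.27 with DMSO (3.05 ± 0.12), and CLDN2 1728.5 ± 43.0 with mitoxantrone and 570.2 ± 75.8 with DMSO (1.60 ± 0.08). F11R, junctional adhesion molecule A, had 785, 798 and 778 counts with mitoxantrone and 340.4, 334 and 339.7 with DMSO (1.22 ± 0.09). PVRL1, which encodes nectin 1, was higher at 1.35 ± 0.11. CDH1, DSC3 and JUP were higher in the same libraries in which TJP1, CLDN1 and OCLN were lower. CLDN2, CLDN4 and F11R, also of tight junctions, were higher in those libraries, and the cadherins CDH4 and CDH11 were lower.

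**Figure D5:**
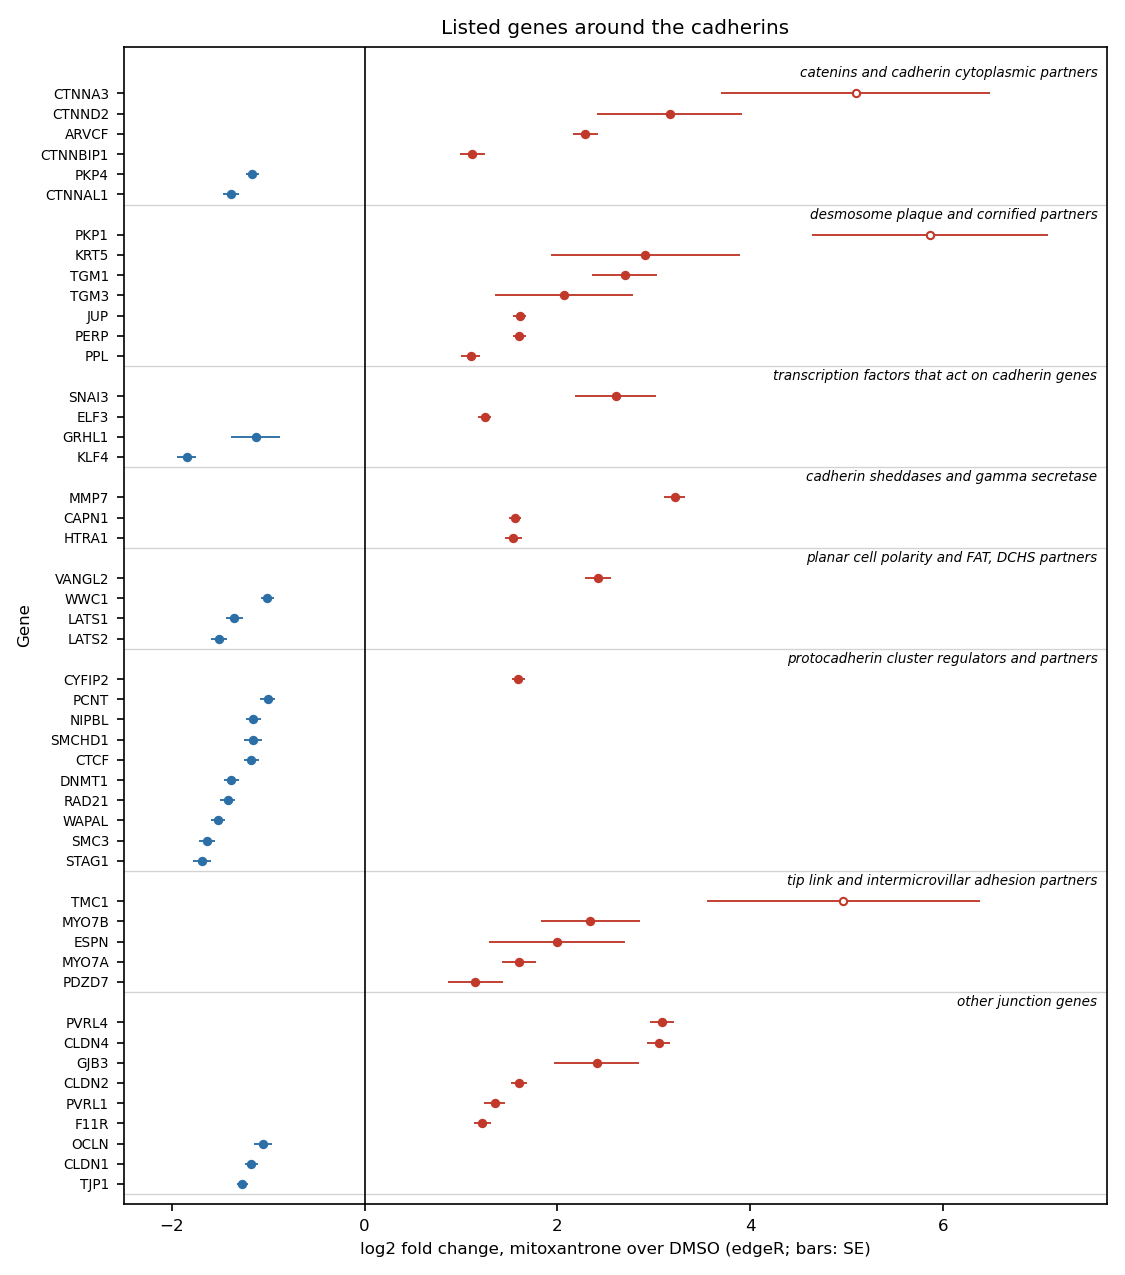
Log2 fold change of mitoxantrone over DMSO (edgeR; bars, standard error) for the listed genes of each list around the cadherins; red, higher; blue, lower; open points had 0 reads in all DMSO libraries. All 7 listed genes of the desmosome plaque and cornified list and all 5 listed tip link and microvillar genes are higher, and 9 of the 10 listed genes of the protocadherin cluster list are lower.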

How the data were processed

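Per the submitters' processing notes the tools were cutadapt 1.9.1, HISAT2 2.0.1, HTSeq 0.6.1, DESeq2, SAMtools 0.1.19 and Cufflinks 2.2.1, with no roles stated, and neither build nor annotation was given in the sources used here. Per the labels' protocols, 150-base read pairs came from libraries of 13 PCR cycles. The deposited table holds raw read counts, FPKM scaled by the authors to gene length and library reads, and the mean normalized count, a signal the authors made with size factors. It also holds, as deposited by the authors, the log2 fold change with its error, their quotient as a score, p-values and a gene length. Identifiers of 36 of 37 members matched GENCODE 29.

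Size factors were recovered from the deposited counts and mean normalized counts by least squares (largest relative residual 1.6e-09), and library totals from FPKM of at least 20. Groups and replicate numbers come from the sample titles. edgeR 4.0.16 (R 4.3.3) fitted all 4546 genes with no filter or covariate, with a quasi-likelihood F-test, glmTreat for the 2-fold test and Benjamini-Hochberg adjustment. A standard error is the absolute log2 fold change divided by the square root of F. The common biological coefficient of variation was 6.68%. The fit was tested on simulated data. Sums were compared by exact permutation (scipy 1.17.1). Members with a mean of at least 50 normalized counts in a group are given in every library, and up to 6 listed genes of each partner list, by mean count, are named. Other named list genes, and those said to be not listed, were chosen after their values were seen. The members and lists were chosen with earlier results of these data known. Replicates may be technical, so p-values measure the spread between these libraries. Intervals cover counting error only, since no molecular identifiers are named. Alternatives were TMM, library totals, a count filter, DESeq2 1.42.0, a replicate block, summed arrays and leaving out each library.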

Additional observations from a re-analysis of the deposited data

How the results depend on the processing

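No value of the 14 members given by library, and no subfamily sum, changed direction under any alternative run, and 184 of 188 values of those members kept their side of the threshold. The exceptions were CDH1 (adjusted p = 0.21) and PCDHB6 (0.088) against a 2-fold change, and the same genes in DESeq2 with size factors from the listed genes, at log2 0.17 (adjusted p = 0.068) and 0.38 (0.27). Over all alternative fits against 0 the adjusted p of CDH1 ran from 1.2e-31 to 0.068 and that of PCDHB6 from 8.8e-07 to 0.27. That DESeq2 fit gave 1580 genes higher in all, 23 members higher, 2 members past 2-fold and higher, and a member median of 0.94. Its size factors came from the selected genes and shifted the genes by a median of -0.84. With the recovered size factors, chosen after seeing the data, DESeq2 called 35 members higher and 2 lower. Of these, 14 and 1 passed 2-fold, against 29 and 2 in the main edgeR fit, and the cause was not tested. The member median was 1.51 with TMM, a shift of -0.26, 1.68 with library totals and 1.68 with at least 10 counts in 3 libraries, a filter that 29 of the 37 members passed. Summing each protocadherin array left fewer rows, with 20 higher, 18 past 2-fold and higher, and a median of 1.94. Leaving out 1 library gave 34 to 35 members higher, 2 lower, 28 to 29 past 2-fold and higher, and medians of 1.73 to 1.87; the smaller number of samples is the known difference. Without DMSO 1 the fitted log2 values of CDH5, CDH18, PCDHA7 and CDH15 became 6.15, 5.28, 5.75 and 4.05. Without DMSO 2 that of CDH13 became 5.20. These genes had 3 or fewer DMSO reads. PCDHB16, with 1, 1 and 3 reads in DMSO 1 to 3, was at 3.68 without DMSO 3. Each of these genes moved by over 1.5 times on the fold scale. Libraries that share a number did not move together around their group means (correlations of -0.067, -0.075 and 0.029 over 2622 genes). The replicate block, on numbers that pair nothing else, called 35 members higher and 2 lower, of which 28 and 2 passed 2-fold. edgeR's prior degrees of freedom were infinite in that fit and 36.3 without the block, so its smaller p-values are no sign of stability; every subfamily sum had its direction in 3 of 3 same-numbered pairs.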
